A study of Mus musculus with 24 samples.

Results

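STING (stimulator of interferon genes, encoded by Tmem173) and 6 genes that act next to it were examined, Tbk1, Ikbke, Traf3, Trex1, Samhd1 and Enpp1. They were chosen by gene symbol as 7 of the 54532 genes in the deposited table. RNA of macrophages (BMDMs) and dendritic cells (BMDCs), both grown from mouse bone marrow, had been sequenced as 24 libraries, 3 in each of 8 groups, to ask how loss of STING alters the response to a STING agonist. All groups came from mice with floxed Tmem173 alleles, on a C57BL/6N background per the methods. The methods give tamoxifen to floxed mice with and without Cre and do not state it separately for the marrow donors. WT-labelled cells lacked Cre, and CRE-labelled cells carried a tamoxifen-inducible Cre (Creert2) driven by Lyz2, the lysozyme gene of myeloid cells, so deletion was limited to cells in which that promoter was active. Control cells received no agonist and DMXAA cells received DMXAA, a small molecule that binds mouse STING, at 40 µM per the series description. Because the methods text names µg/mL as the unit, the dose is not certain. The methods place tamoxifen at 5 to 6 or at 6 to 8 weeks of age without saying which mice gave marrow. Whether libraries of 1 group came from separate mice is not given in the sources used here, so p-values measure the spread between these libraries.

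STING sits in the membrane of the endoplasmic reticulum and is switched on by cyclic dinucleotides such as cGAMP, which the sensor cGAS makes on cytosolic DNA. Active STING moves to the Golgi and recruits the kinase TBK1 and its relative IKKε (Ikbke), which phosphorylate the transcription factor IRF3 and start type I interferon production. TRAF3 is an adaptor and ubiquitin ligase of these kinases, TREX1 and SAMHD1 remove DNA and its building blocks, and ENPP1 hydrolyses cGAMP outside the cell.

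The stretches upstream of 4 members are shown because these genes differed in the size of their response, from the largest (Samhd1) to the smallest called rise (Traf3). They were taken from RefSeq promoter windows of GRCm38.p6, each written 5′ to 3′ on the strand of the gene and cut to the bases that precede both the RefSeq and the GENCODE start. They lie at chr2:157135266-157135346 (minus strand) for Samhd1, chr1:131279607-131279813 (minus strand) for Ikbke, chr10:121586795-121587044 (minus strand) for Tbk1 and chr12:111166120-111166369 (plus strand) for Traf3. Capitals mark a match to a searched motif, and the Ikbke and Tbk1 stretches hold none.
Samhd1: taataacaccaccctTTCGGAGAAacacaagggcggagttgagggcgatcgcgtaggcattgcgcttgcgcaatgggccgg
Ikbke: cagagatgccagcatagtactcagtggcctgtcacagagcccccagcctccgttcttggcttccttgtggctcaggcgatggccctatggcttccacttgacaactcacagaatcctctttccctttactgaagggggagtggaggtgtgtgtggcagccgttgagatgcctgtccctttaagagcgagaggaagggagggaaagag
Tbk1: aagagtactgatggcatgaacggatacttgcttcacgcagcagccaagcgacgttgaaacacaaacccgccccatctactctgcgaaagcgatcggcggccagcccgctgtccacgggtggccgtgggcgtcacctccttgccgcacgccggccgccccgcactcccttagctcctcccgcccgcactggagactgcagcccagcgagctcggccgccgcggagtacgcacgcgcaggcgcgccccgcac
Traf3: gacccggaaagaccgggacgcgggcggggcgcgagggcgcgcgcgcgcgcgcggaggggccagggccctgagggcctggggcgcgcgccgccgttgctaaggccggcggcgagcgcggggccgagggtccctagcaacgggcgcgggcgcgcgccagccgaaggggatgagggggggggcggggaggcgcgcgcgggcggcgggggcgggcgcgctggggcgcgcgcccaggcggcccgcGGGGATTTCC
Windows of 300 bases were found for 6 of 7 members (2 for Trex1) and none for Tmem173. They were searched on both strands for the core of the interferon-stimulated response element (GAAA, 2 bases of any kind, GAAA), a GAS site (TTCNNNGAA) and a kappa-B type site (GGG, 2 bases of any kind, TT, 1 base of any kind, CC). The Samhd1 window held 1 GAS match, 235 to 227 bases before the RefSeq start, and the Traf3 window held 1 kappa-B type match in the last 10 bases before its start. Among all 32851 windows, 8.30% held a GAS match, 4.79% a kappa-B type match and 3.44% an ISRE core, and 0 member windows held the last. A match is a run of letters and was not tested for binding.

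Libraries held 15657347 to 18912887 counts. The 4 BMDM libraries numbered 3, 1 in each group, stood apart. The summed level of 10 macrophage markers was 42.5 to 71.6 CPM (counts scaled to the library total) there against 10500 to 22400 in the other 8, and that of 10 fibroblast markers was 13700 to 21000 against 34.7 to 554. Their values are therefore given separately, and BMDM tests used numbers 1 and 2. Among those 8, both WT-labelled libraries numbered 2 had 503 and 554 CPM of the fibroblast list, and the other 6 had at most 74.0. In BMDCs the dendritic cell list reached 1 CPM in at least 1 library for 10 of 10 genes, and the macrophage list for 9 of 10. Their sums there were 6230 to 10700 and 2070 to 9120 CPM. In BMDM libraries 1 and 2 the dendritic cell list reached 1 CPM for 6 of 10 genes, with sums of 185 to 663 CPM. Both CRE-labelled BMDC libraries numbered 2 had 2070 and 2200 CPM of the macrophage list, where the other 10 had at least 6090, and 190 and 415 CPM of the neutrophil list, where the others had at most 41.7. Of the macrophage sum, Lyz2 alone held 1296 and 1177 CPM in these 2 libraries, where it had at least 4928 in the others. By list median, the macrophage markers of these 2 libraries were 49.2 and 83.6 CPM, overlapping the 76.3 to 168 of the others. Their dendritic cell list had medians of 92.5 and 112 CPM, where the others had at least 117. In bulk RNA, fewer cells of a type and less RNA per cell cannot be told apart.

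Tmem173, the floxed gene (chromosome 18, 35733678 to 35740554), was examined first. Levels are given in FPKM (read counts divided by gene length and library size, as scaled by the authors). In WT-labelled BMDMs it was 14.7 and 9.91 in control libraries 1 and 2, and 31.8 and 22.8 with DMXAA. In CRE-labelled BMDMs it was 10.4 and 8.76 in control and 9.12 and 10.1 with DMXAA. Only the WT-labelled DMXAA pair lay above the rest of the 8. The libraries numbered 3 held 16.3 and 20.9 (WT control and DMXAA) and 11.6 and 15.1 (CRE control and DMXAA), within the span of the others. Which exons are floxed is not given in the sources used here, and these values cover the whole gene, so they do not show how many cells lost it. The transcript was present in every CRE-labelled library.

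The STING transcript rose in 1 of the 4 responses to the agonist. In WT-labelled BMDMs it rose 2.06-fold under DMXAA (log2 fold change 1.04 ± 0.24 SE, n = 2, adjusted p 0.0135 in edgeR's quasi-likelihood test, corrected over 11569 genes). In CRE-labelled BMDMs the log2 difference was -0.02 ± 0.24 (95% CI -0.58 to 0.55) and did not pass. The difference between these responses, -1.06 ± 0.33, did not pass in edgeR without a block (adjusted p 0.140). It passed with a block pairing numbers within a label (0.0191), in DESeq2 (0.0486) and without the filter on low values (0.0205). Same-numbered CRE-labelled libraries hardly deviated together (correlation 0.034), so that block had little pairing to draw on. With any 1 of the 8 libraries left out, the difference ran from -1.37 to -0.81 and did not pass. Under DMXAA the CRE-labelled mean was 35.3% of the WT-labelled mean (log2 difference -1.45 ± 0.24, adjusted p 0.00921 in edgeR), and without agonist it was 78.1% (-0.39 ± 0.23, adjusted p 0.772). The WT-labelled rise fell short of the threshold without DMXAA library 1 (0.80, adjusted p 0.0615) and when counts were scaled by library totals alone (0.52, adjusted p 0.0854), a choice that moved the median of all genes to -0.59. The CRE-labelled deficit under DMXAA did so without CRE DMXAA library 1 (adjusted p 0.0927) or 2 (0.0760).

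BMDCs carried more STING transcript than BMDMs. Control values were 51.6, 28.8 and 35.3 FPKM in WT-labelled and 36.8, 19.7 and 28.4 in CRE-labelled BMDCs. With DMXAA they were 55.3, 34.6 and 35.9, and 33.2, 24.3 and 35.1. The 2 labels overlapped in both treatments, and so did control and DMXAA in both labels. The log2 response was 0.09 ± 0.28 (95% CI -0.52 to 0.71) in WT-labelled and 0.10 ± 0.28 (-0.52 to 0.72) in CRE-labelled cells, and neither passed. By group mean the order was BMDC WT DMXAA (41.9), WT control (38.5), CRE DMXAA (30.9) and CRE control (28.3), then BMDM WT DMXAA (27.3), WT control (12.3), CRE DMXAA (9.63) and CRE control (9.60). Neighbours in that order overlapped except the WT-labelled BMDM pair. CRE against WT gave -0.43 ± 0.28 in control (95% CI -1.05 to 0.19) and -0.43 ± 0.28 with DMXAA (-1.05 to 0.19), which also did not pass.

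**Figure D1:**
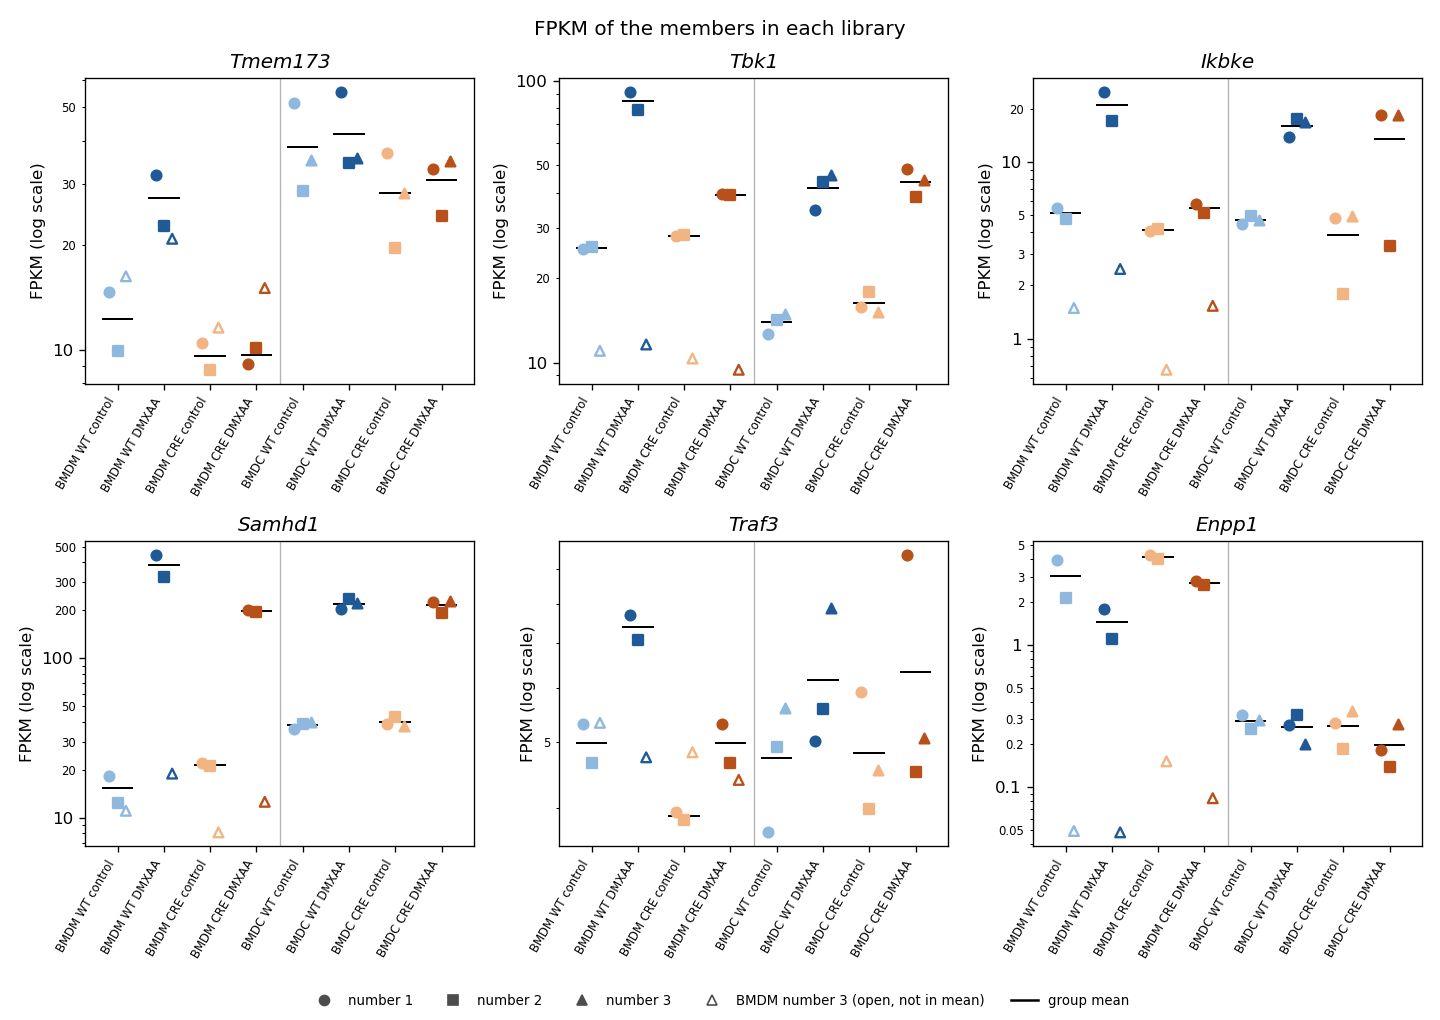
FPKM of 6 members (log axes) in the 8 groups, 1 symbol per library and a bar at the group mean, with the BMDM libraries numbered 3 as open triangles outside the mean. Samhd1 rises in every cell type and label, Ikbke and Tbk1 rise most in WT-labelled BMDMs and in BMDCs, and Enpp1 lies at 1.10 to 4.29 in BMDM libraries 1 and 2 and at 0.344 or less in BMDCs. Trex1 is left out because it is listed at 0 throughout.

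The kinases rose together in WT-labelled BMDMs and in both BMDC labels. Tbk1 (chromosome 10, 121546455 to 121586787), the main STING kinase, went from 25.2 and 25.6 to 90.9 and 78.6 FPKM in WT-labelled BMDMs. In CRE-labelled BMDMs it went from 28.0 and 28.4 to 39.7 and 39.2. Control and DMXAA libraries did not overlap in either label, and both CRE-labelled DMXAA libraries lay below both WT-labelled ones. The log2 fold change was 1.63 ± 0.11 (adjusted p 0.000140 in edgeR) in WT-labelled BMDMs. It was 0.46 ± 0.11 in CRE-labelled BMDMs, which narrowly missed the threshold of 0.05 (adjusted p 0.0501 in edgeR, 0.00394 in DESeq2, and 0.0205 with a block pairing numbers within the label). In BMDCs Tbk1 went from 12.6, 14.2 and 14.9 to 34.8, 43.7 and 46.5 with the WT label, and from 15.7, 17.7 and 15.1 to 48.4, 38.7 and 44.5 with the CRE label. Those rises of 2.95-fold and 2.66-fold were called (adjusted p 4.16e-05 and 0.000104 in edgeR). The libraries numbered 3 held 11.0, 11.6, 10.3 and 9.43, with no gap between control and DMXAA.

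Ikbke (chromosome 1, 131254343 to 131279606), the inducible relative of Tbk1, went from 5.49 and 4.78 to 24.9 and 17.1 FPKM in WT-labelled BMDMs. In CRE-labelled BMDMs it went from 4.09 and 4.20 to 5.81 and 5.13. The WT-labelled DMXAA libraries thus stood alone, above the other 6 with no overlap. Its log2 fold change was 1.92 ± 0.19 (3.78-fold, adjusted p 0.000525 in edgeR) with the WT label, and 0.38 ± 0.19 (adjusted p 0.25) with the CRE label. Antisense genes Gm28914 and Gm28913 overlap 1.76% and 0.721% of its exonic bases and hold at most 67 counts in any library, against at least 127 for Ikbke. The libraries numbered 3 held 1.49 and 2.48 (WT control and DMXAA) and 0.665 and 1.53 (CRE control and DMXAA), below all other BMDM libraries.

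In BMDCs 1 pair of libraries set Ikbke apart. WT-labelled BMDCs went from 4.48, 4.92 and 4.68 to 13.8, 17.5 and 16.9 FPKM. CRE-labelled BMDCs numbered 1 and 3 went from 4.84 and 4.92 to 18.6 and 18.5, whereas number 2 went from 1.79 to 3.36. Both number 2 libraries are those with a lower macrophage marker sum (largely Lyz2), lower dendritic cell marker medians and higher neutrophil markers. The part of these in the Ikbke values was not tested. The response was 1.76 ± 0.54 (adjusted p 0.0277 in edgeR) with the WT label and 1.78 ± 0.54 (adjusted p 0.0313) with the CRE label. Without both number 2 libraries it was 1.76 ± 0.13 (adjusted p 4.96e-06) and 1.90 ± 0.16 (adjusted p 1.95e-05). Leaving out single libraries put the adjusted p between 0.0414 and 0.0798 for the WT label and between 0.000753 and 0.107 for the CRE label. The call was lost in 5 of 6 cases for each label, all but leaving out WT DMXAA library 1 and CRE DMXAA library 2. Scaling by library totals also ended both calls (1.4, adjusted p 0.0610, and 1.44, adjusted p 0.0604). These fits did not pair numbers, and a block pairing numbers within a label kept both calls. From control to DMXAA of the same number, FPKM rose 3.09-, 3.56- and 3.62-fold with the WT label. With the CRE label it rose 3.84-, 1.87- and 3.75-fold.

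Within a library the kinases were compared per annotated length, 9018 bases for Ikbke and 3910 for Tbk1. The percentages depend on these lengths, and which transcripts were present was not tested. Ikbke was 18.7% and 21.8% of Tbk1 in WT-labelled control BMDMs and 21.8% and 27.4% with DMXAA. It was 13.1% to 14.8% in the 4 CRE-labelled BMDM libraries. In BMDCs it was 30.8% to 41.5% in 10 libraries, and 10.1% and 8.68% in the CRE-labelled libraries numbered 2. Outside those 2 libraries, the BMDC and BMDM values did not overlap.

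**Figure D2:**
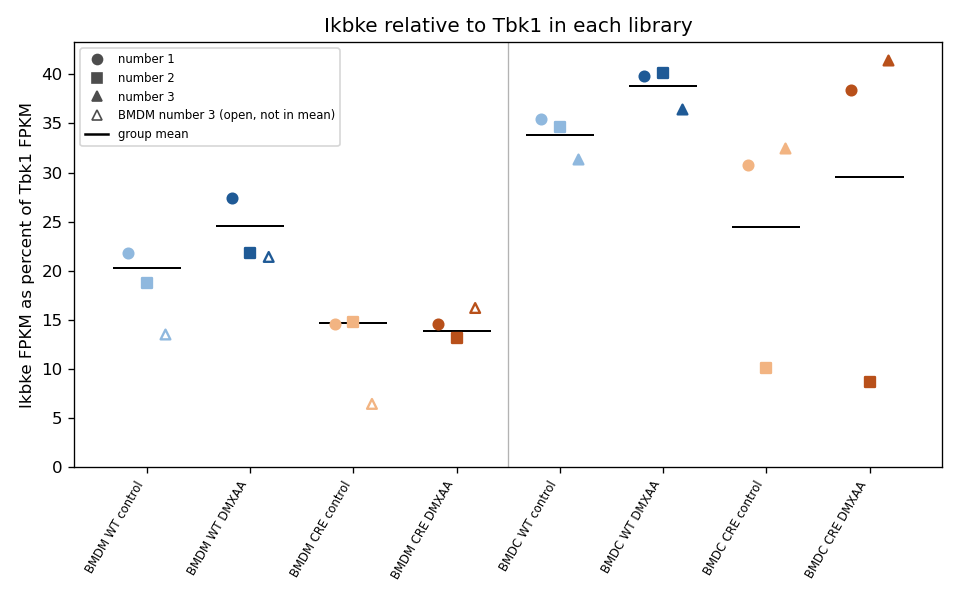
Ikbke FPKM as a percentage of Tbk1 FPKM (linear axis from 0) in each library of the 8 groups, with bars at group means and BMDM number 3 as open triangles. BMDC libraries lie at 30.8 to 41.5 except the CRE-labelled ones numbered 2, at 10.1 and 8.68.

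Traf3 (chromosome 12, 111166370 to 111267153) moved little. In WT-labelled BMDMs it went from 5.32 and 4.66 to 7.69 and 7.07 FPKM, and in CRE-labelled BMDMs from 3.95 and 3.84 to 5.32 and 4.65. Control and DMXAA did not overlap within a label. The rise of 0.45 ± 0.13 (adjusted p 0.0297 in edgeR) was called with the WT label, and 0.33 ± 0.13 (adjusted p 0.156) was not with the CRE label. The WT-labelled call was lost without WT DMXAA library 1 (adjusted p 0.0864) or WT control library 2 (0.0717) and without the filter on low values (0.0966), and scaling by library totals turned it to -0.06. In BMDCs values ran from 3.68 to 5.93 in control and from 4.52 to 9.44 with DMXAA, overlapping, with log2 responses of 0.36 ± 0.30 and 0.37 ± 0.30 that were not called. The highest value came from CRE-labelled DMXAA library 1. The libraries numbered 3 held 4.40 to 5.34.

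Samhd1 (chromosome 2, 157097533 to 157135265), a phosphohydrolase that depletes deoxynucleotides and restricts viruses, had the largest response of the 6 members measured. It went from 18.2 and 12.4 to 444 and 322 FPKM in WT-labelled BMDMs, and from 22.1 and 21.1 to 200.3 and 195 in CRE-labelled BMDMs. In both labels the gap between control and DMXAA was far wider than that between libraries. The rise was 23.1-fold (log2 4.53 ± 0.24, adjusted p 4.21e-05 in edgeR) with the WT label and 9.02-fold (3.17 ± 0.23, adjusted p 0.000321) with the CRE label. The interaction, -1.36 ± 0.30, was not called in edgeR (adjusted p 0.0621) and was in DESeq2 (0.000559), without the filter on low values (0.000152) and with a block by number (0.0389) or by number within a label (0.00518). BMDCs started higher and ended lower than WT-labelled BMDMs. They went from 36.2, 38.7 and 39.7 to 203, 234 and 222 with the WT label, and from 39.0, 42.7 and 37.7 to 225, 191 and 229 with the CRE label. The labels overlapped in both treatments. The rises were 5.66-fold and 5.31-fold (adjusted p 6.89e-07 and 9.68e-07 in edgeR). In the libraries numbered 3 it was 11.1 and 18.9 (WT) and 8.12 and 12.6 (CRE).

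Enpp1 (chromosome 10, 24637914 to 24712159) was the only member called as lower under DMXAA in BMDMs. In WT-labelled BMDMs it went from 3.94 and 2.14 to 1.78 and 1.10 FPKM, and in CRE-labelled BMDMs from 4.29 and 4.0 to 2.82 and 2.64. The groups did not overlap within a label. The lower value of each WT-labelled pair came from library 2, which had the higher fibroblast markers, and the part of these in the Enpp1 values was not tested. The log2 change of -1.19 ± 0.32 (adjusted p 0.0254 in edgeR) was called with the WT label, and -0.62 ± 0.31 (adjusted p 0.253) was not with the CRE label, where a block pairing numbers within the label did call it (0.0130). Without WT control library 1 it was -0.69 (adjusted p 0.0897), and without WT DMXAA library 2 it was -0.89 (adjusted p 0.102). BMDCs held 0.138 to 0.344 FPKM, from 22 to 66 counts, below the filter of the BMDC fit, so no BMDC response was tested. The libraries numbered 3 held 0.0482 to 0.152.

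Trex1 (chromosome 9, 109057933 to 109059734), the main cytosolic DNA exonuclease, was listed at 0 counts in all 24 libraries. Its 1147 exonic bases lie entirely (100%) inside exons of Atrip on the same strand, which held 117 to 323 counts. How reads that match both genes were assigned is not given in the sources used here, so the 0 does not show that Trex1 was silent, and it was left out of the tests.

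Across the 4 responses, 6 of 6 tested members were called in WT-labelled BMDMs (5 higher, 1 lower), against 39.2% of all genes (18.4% higher and 20.7% lower). In CRE-labelled BMDMs 1 of 6 was called, Samhd1, against 10.0% (7.28% higher and 2.72% lower). In WT-labelled BMDCs 3 of 5 were called, Tbk1, Ikbke and Samhd1, all higher, against 32.2% (17.0% higher and 15.2% lower). The same 3 were called in CRE-labelled BMDCs, against 25.4% (14.0% higher and 11.4% lower). A block that paired numbers within a label called 5911 and 5181 genes in the BMDC responses, in place of 3904 and 3084, and the same 3 members. Scaling by library totals turned the split of calls over all genes from 2134 higher and 2397 lower to 1401 and 5432 in WT-labelled BMDMs, and from 842 and 315 to 682 and 866 in CRE-labelled BMDMs. In BMDCs it turned 2056 and 1848 to 1352 and 3737 with the WT label, and 1702 and 1382 to 1192 and 3295 with the CRE label. With all 12 BMDM libraries in the fit, 0 members were called in any BMDM comparison. The WT-labelled log2 changes were then 0.86 for Tmem173, 1.5 for Tbk1, 1.87 for Ikbke, 4.18 for Samhd1, 0.32 for Traf3 and -1.11 for Enpp1, with adjusted p from 0.247 to 1.

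**Figure D3:**
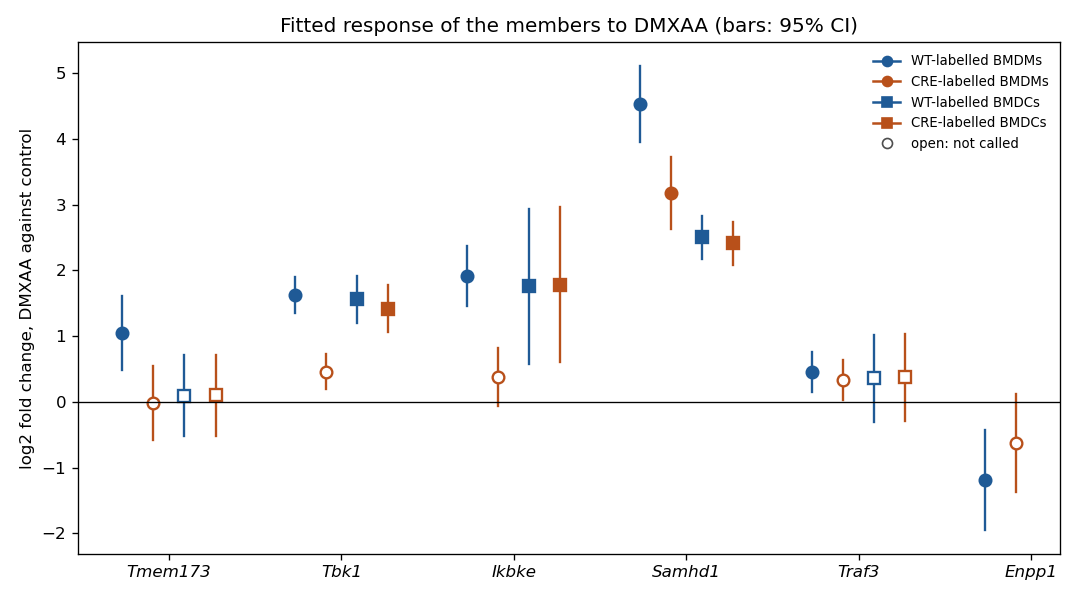
Fitted log2 fold change of DMXAA against control (vertical axis) for 6 members, with 95% confidence intervals as bars, by cell type and label, filled where called. WT-labelled BMDMs are filled for 6 members, CRE-labelled BMDMs for Samhd1 alone, and Enpp1 was not tested in BMDCs.

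The labels were then compared within each treatment. In control BMDMs 0 of 6 members were called (0.0432% of all genes), and Traf3 had the smallest adjusted p (-0.40 ± 0.13, adjusted p 0.686 in edgeR). It was the 1 member with an unadjusted p under 0.05, and DESeq2 also called 0. Under DMXAA 5 of 6 were called, all lower with the CRE label. Of all 11569 genes 19.3% were called in either direction, 1157 of them lower. Ikbke differed most (-1.89 ± 0.19, adjusted p 0.00200), followed by Tmem173 as given above, Tbk1 (-1.06 ± 0.11, adjusted p 0.00236), Samhd1 (-0.90 ± 0.21, adjusted p 0.0297) and Traf3 (-0.52 ± 0.13, adjusted p 0.0349). Enpp1 was at 0.98 ± 0.32 and was not called (adjusted p 0.0790), but was with a block by number (0.0279), in DESeq2 (0.0451), without the filter on low values (0.000381) and with scaling by library totals (0.0318). With any 1 of the 4 DMXAA libraries left out, the Enpp1 difference ran from 0.68 to 1.35 and did not pass. The Samhd1 call was lost without WT DMXAA library 1 (adjusted p 0.0947) and without CRE DMXAA library 1 (0.163) or 2 (0.173), and with scaling by library totals (0.0523). Without the same libraries that of Traf3 was lost too (0.0866, 0.118 and 0.230), as it was with scaling by library totals (-0.28, adjusted p 0.165) and without the filter (0.119). Library totals as the scale turned 1071 genes higher and 1157 lower into 2078 and 850.

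A test of the difference between the responses called Tbk1 (-1.17 ± 0.16, adjusted p 0.0208 in edgeR) and Ikbke (-1.54 ± 0.26, adjusted p 0.0352) in BMDMs, 2 of 6 against 3.66% of all genes. Both calls were lost when any of the 4 CRE-labelled libraries was left out. The adjusted p was then 0.148 to 0.159 for Tbk1 and 0.170 to 0.201 for Ikbke. Scaling by library totals turned 160 genes with a higher and 264 with a lower CRE-labelled response into 373 and 189. In BMDCs 0 of 5 members and 0% of all genes were called between labels in control, 0% with DMXAA and 0% for the difference in response. At an unadjusted p under 0.05 there were 99, 108 and 60 genes, and DESeq2 called 0, 0 and 1. The lowest unadjusted p of a member was 0.153, for Tmem173 in control.

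Resting cells of the WT label were compared for the 5 members above 1 FPKM in both cell types, of which 3 were called, against 28.5% of all genes. WT-labelled control BMDCs held more Tmem173 (log2 1.59 ± 0.32, adjusted p 0.00154 in edgeR) and Samhd1 (1.26 ± 0.18, adjusted p 0.000104) than BMDMs. They held less Tbk1 (-0.93 ± 0.15, adjusted p 0.000195). Ikbke (-0.19 ± 0.51) and Traf3 (-0.13 ± 0.28) were not called. Enpp1 passed the filter of this fit through BMDMs alone, so its levels given above are a description and its test is not used. The response of Samhd1 differed between cell types, being smaller in BMDCs by 2.01 ± 0.25 (adjusted p 0.000501), 1 of the same 5 members against 2.61% of all genes (118 higher and 231 lower, or 143 and 177 when scaled by library totals). The same difference was -0.92 ± 0.43 for Tmem173 (adjusted p 0.364, or 0.0118 with a block pairing numbers within a label) and -0.04 ± 0.21 for Tbk1 (adjusted p 0.998).

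The rest of the pathway was described through 5 lists of 88 symbols, of which 83 were tested in BMDMs and 81 in BMDCs. Their counts are given beside the share of all genes called in the same direction. Of 14 DNA sensors, 4 rose and 7 fell in WT-labelled BMDMs (18.4% and 20.7% of all genes), with a median log2 change of -0.44 against -0.08 over all genes. Zbp1, a sensor of Z-form nucleic acid, rose most (7.42 ± 0.32, adjusted p 2.01e-05 in edgeR) and Xrcc6, the Ku70 subunit of DNA repair, fell most (-1.94 ± 0.22, adjusted p 0.000860). In WT-labelled BMDCs 4 rose and 3 fell (17.0% and 15.2% of all genes), led by Ifi204 (5.95 ± 0.27), a DNA-binding PYHIN protein, and by Xrcc6 (-1.81 ± 0.20).

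Of 16 genes of STING retention, trafficking and turnover, 3 rose and 1 fell in WT-labelled BMDMs. The share that rose is close to the 18.4% of all genes that did, and the share that fell is below the 20.7% of all genes. Rhbdf2 (iRhom2), which aids STING trafficking, rose by 2.33 ± 0.17 on the log2 scale there and by 1.10 ± 0.36 in WT-labelled BMDCs, where 2 of 16 rose against 17.0% of all genes. Npc1, the lysosomal cholesterol transporter, fell in WT-labelled BMDMs (-0.56 ± 0.12, adjusted p 0.0102 in edgeR). Kinase adaptors and transcription factors rose in 8 of 16 cases in WT-labelled BMDMs (median 0.75, against 18.4% of all genes higher) and in 10 of 16 in WT-labelled BMDCs (median 1.08, against 17.0%). Irf7, the interferon-amplifying factor, led with 8.43 ± 0.31 and 7.23 ± 0.36. In WT-labelled BMDCs Irf3, the direct substrate of TBK1, fell (-0.59 ± 0.15, adjusted p 0.00958 in edgeR). It was the 1 of 16 that did, against 15.2% of all genes. In CRE-labelled BMDMs 2 of these 16 rose, against 7.28% of all genes.

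Ubiquitin and inhibitory regulators rose in 10 of 20 cases and fell in 5 in WT-labelled BMDMs, against 18.4% and 20.7% of all genes. Usp18, which removes ISG15 and restrains the interferon receptor, passed the BMDM filter through DMXAA libraries alone. Its call is counted among the 10 rises, but its fitted rise, from a mean of 1.31 FPKM, is not used. Dtx4, a ligase that directs TBK1 to degradation, fell most (-1.90 ± 0.18). In WT-labelled BMDCs 10 of 18 rose and 3 fell (17.0% and 15.2% of all genes), with Usp18 (6.48 ± 0.36) and Nlrx1, an inhibitor of STING, at the ends (-1.02 ± 0.23). Of 17 genes of cyclic dinucleotide transport and nucleases, 4 rose and 4 fell in WT-labelled BMDMs, and 3 rose and 2 fell in WT-labelled BMDCs, close to the shares of all genes (18.4% and 20.7%, then 17.0% and 15.2%). Dnase1l3, a secreted nuclease, passed the filter through DMXAA libraries alone. Its calls are counted among these 4 and 3 rises but are not read as a result. Its mean FPKM was 0.0279 in control and 13.0 with DMXAA in WT-labelled BMDMs, and 0.0202 and 11.0 in WT-labelled BMDCs. The cGAMP exporter Abcc1 fell most in BMDMs (-1.40 ± 0.14) and the dinucleotide importer Slc19a1 in BMDCs (-2.50 ± 0.28).

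**Figure D4:**
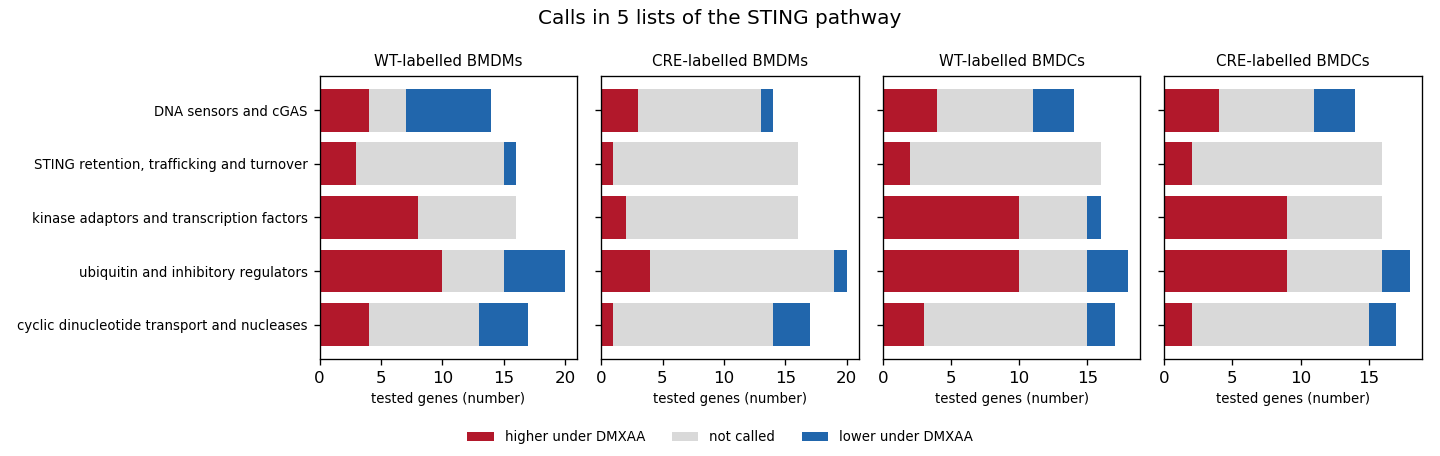
Number of tested genes (horizontal axis) in each of 5 pathway lists that were higher, lower or not called under DMXAA, for the 4 responses. CRE-labelled BMDMs show 11 higher and 5 lower calls over the lists, against 29 and 17 in WT-labelled BMDMs, while 10.0% and 39.2% of all genes were called. Of those higher calls, 1 with the CRE label and 2 with the WT label passed the filter through DMXAA libraries alone.

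Over the 20 libraries other than BMDM number 3, the genes closest to each member were ranked by Pearson correlation of log2(FPKM + 1) among 13368 genes. They share cell type, treatment and depth, so these values are descriptions. Samhd1 was closest to Mov10 (0.993), Rnf114 (0.992) and Sp110 (0.992), and Tbk1 to Rufy3 (0.982), Vps37c (0.976) and Peli1 (0.976). Ikbke was closest to Tmem86b (0.958), Rfx5 (0.942) and Mocs1 (0.936), none of them a neighbour of Tbk1 in this ranking. Tmem173 was closest to Trp53i11 (0.927), Jdp2 (0.921) and Snd1 (0.921), Traf3 to Sbno2 (0.930), Ep400 (0.913) and Brpf3 (0.909), and Enpp1 to Gm26947 (0.994), Usp2 (0.988) and Mef2c (0.984). Among the members themselves, Tbk1 and Samhd1 had 0.785 and Tbk1 and Ikbke 0.752, whereas Tmem173 and Enpp1 had -0.837. Enpp1 lay at 0.344 FPKM or less in BMDCs and passed this filter through BMDMs alone, so its correlations carry the difference between cell types.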

How the data were processed

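RNA was sequenced from polyA libraries of 24 samples (NEBNext Ultra kit, TRIzol extraction). The submitters' processing notes name CASAVA 1.8, fastp, HISAT2 2.0.5, featureCounts 1.5.0-p3, DESeq2 1.20.0 and GRCm38 (mm10). Strand settings and annotation release are not given in the sources used here. The authors deposited raw counts and FPKM values for 54532 genes. FPKM divides by gene length and an effective library size, 68.7% to 133% of the total count. A further 60 deposited columns hold group means, fold changes and p-values of the authors' comparisons and were not used. Groups came from the labels, and members and lists were chosen with earlier results of these data known.

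Counts were tested with edgeR 4.0.16 (R 4.3.3) quasi-likelihood fits with TMM scaling and 1 mean per group, two-sided. Genes with FPKM of at least 1 in 2 BMDM or 3 BMDC libraries entered, 11569 (8 libraries) and 12126 (12 libraries), and cell type fits used 20 libraries and 13368 genes. Calls had a Benjamini-Hochberg adjusted p under 0.05. SE is the standard error of the log2 fold change. Alternatives covered scaling, filter, DESeq2 1.42.0, a fold threshold, replicate blocks, all BMDM libraries and single libraries left out. Library-total scaling and leaving out both CRE-labelled BMDC libraries numbered 2 were added after seeing the data. Genes named from the lists were the called gene of largest rise and of largest fall in WT-labelled BMDMs and BMDCs. Scripts were tested on simulated data. Counts without molecular identifiers are not independent molecules, and the depth of 15657347 to 18912887 limits low values such as Enpp1 in BMDCs. Same-numbered control and DMXAA libraries of a label deviated together in BMDCs (correlation of deviations from group means 0.412 to 0.693 over 6 pairs), so numbers were read as pairing treatments within a label. Across labels the same-number correlation in BMDCs was -0.507 to 0.00414. In BMDMs the correlation within a label was 0.674 for WT and 0.034 for CRE, from 2 libraries a group. Blocks within the CRE label of BMDMs thus rest on little sign of pairing. What a number stands for is not stated in the labels. Figures were drawn with matplotlib.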

Additional observations from a re-analysis of the deposited data

Results flagged for a closer look

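In BMDMs the response to DMXAA differed between genotype labels for 2 members, by the test of the difference itself in edgeR. The log2 difference, CRE minus WT, was -1.17 for Tbk1 and -1.54 for Ikbke, over 2 libraries a group. Between cell types the response of Samhd1 differed with the WT label, with a log2 difference of -2.01, smaller in BMDCs.

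The BMDM libraries numbered 3 entered only the alternative fit with all 12 BMDM libraries. For 2 members both DMXAA values there lay above both control values. The lower of the DMXAA values was 1.53 FPKM for Ikbke, against at most 1.49 in control. For Samhd1 it was 12.6 FPKM, against at most 11.1 in control. With 1 such library in each group, these differences have no replicate check. No formal outlier criterion was applied, since every group had 3 libraries or fewer.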

How the results depend on the processing

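Of 166 counts of called members under an alternative, 146 stayed within 1.5 times the reported count. With all 12 BMDM libraries the count was 0 for every BMDM comparison and the cell type interaction, and 1 for control BMDCs against BMDMs. In CRE-labelled BMDMs DESeq2 called 2 and the replicate block within label 3, in place of 1 (Tbk1 and Enpp1 added by the block, adjusted p 0.0205 and 0.0130). Same-numbered control and DMXAA libraries there hardly deviated together (correlation 0.034), so the block had little pairing to draw on. For the BMDM interaction no filter, DESeq2 and the block within label each gave 4 in place of 2, and for the cell type interaction the block gave 3 in place of 1 (Tmem173 and Enpp1 added, the latter past the filter through BMDMs alone). Requiring a log2 change of 1 gave 3 of 5 under DMXAA between BMDM labels. Leaving out 1 library gave 2 to 5 there and 0 to 3 for the BMDM interaction. The replicate block by number alone gave 6 and 3 for these, in place of 5 and 2. In BMDC responses the pairing changed no member's call. Single-member values kept direction and side in 536 of 635 cases, lost the call in 60, gained one in 19 and changed sign in 20, of which 1 had been called. That was Traf3 in WT-labelled BMDMs, -0.057 under library-total scaling, which also gave 0.17 for its interaction, -0.0049 for its WT-labelled BMDC response, and -0.26 and -0.24 for Tmem173 in WT- and CRE-labelled BMDCs. Tmem173 in CRE-labelled BMDMs was 0.0065 without the filter, 0.15 with all libraries and -0.15 to 0.11 with 1 left out. With 1 left out, Tmem173 ran from -0.13 to 0.36 and -0.11 to 0.34 in the BMDC responses, and Traf3 from -0.039 to 0.57 with the CRE label. Ikbke between BMDC labels ran from -0.49 to 0.066 in control and from -0.56 to 0.20 with DMXAA, and was 0.066 and 0.20 without both CRE-labelled number 2 libraries. Control BMDCs against BMDMs gave 0.24 for Ikbke with all libraries, and -0.24 to 0.025 for Traf3. The cause of these shifts was not tested.

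Counts over all genes moved by over 1.5 times as follows. A log2 change of 1 reduced 4531, 1157, 2228, 3904, 3084 and 3812 calls to 2879, 718, 1299, 2362, 1841 and 2506. All BMDM libraries gave 9 in the WT-labelled BMDM response, 1254 between control cell types and 0 in the other BMDM comparisons, and library totals gave 6833 in the former. No filter gave 2120 for CRE-labelled BMDMs, 700 for 5 between control BMDM labels, 3630 for 2228, 1342 for 424 in the BMDM interaction, 836 for 349 in the cell type interaction and 2 for 0 in 2 BMDC label tests. DESeq2 gave 1908 for 1157, 126 for 5, 1195 for 424, 738 for 349 and 1 for 0 in the BMDC interaction. The block within label gave 2920 for 1157, 1702 for 424, 5911 for 3904, 5181 for 3084 and 1465 for 349. Leaving out 1 CRE-labelled library gave 0 to 2 in the BMDM interaction, 248 to 321 for 1157 in the CRE-labelled BMDM response (any 1 library of that label), and 313 and 316 for 2228 under DMXAA between BMDM labels. Without WT DMXAA library 1 the BMDM interaction gave 217, without WT control or DMXAA library 2 it gave 1267 and 1347, and the cell type interaction ran from 134 to 549 without single WT-labelled libraries. Between control BMDM labels the count was 213 without WT library 1 and 2 without either CRE library.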

Other observations

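Lyz2, the gene whose promoter drives Cre, was called lower in CRE-labelled BMDMs under DMXAA and not in control. It was 9222 and 10806 FPKM in WT-labelled control libraries 1 and 2 and 5101 and 5158 in CRE-labelled ones (log2 difference -1.0, adjusted p 0.247 in edgeR), and 6185 and 7964 against 2667 and 2837 with DMXAA (-1.32, adjusted p 0.00431). In BMDCs the CRE-labelled libraries numbered 1 and 3 held 4287 to 5035 FPKM of Lyz2 and the WT-labelled ones 4031 to 5963, while CRE-labelled number 2 held 927 and 1040. The gene was chosen after its values were seen.

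In BMDCs, the closest match across labels in deviation from group means was always a library of another number. Deviations cancel out within a group, so each library was bound to have a positive closest match in another group. Matches in control and DMXAA are not separate either, since same-numbered libraries of a label deviated together. CRE-labelled number 1 was closest to WT-labelled number 3 (correlation of deviations 0.384 in control and 0.717 with DMXAA), and CRE-labelled number 3 to WT-labelled number 2 (0.544 and 0.589). CRE-labelled number 2, with a lower macrophage marker sum, lower dendritic cell marker medians and higher neutrophil markers, was closest to WT-labelled number 1 (0.432 and 0.567). The labels do not say whether these libraries share anything, and this was not tested.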
